A study of Mus musculus with 3 samples.

Results

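Exposure of MigA9 cells to the compound DB818 for 24 h was followed on 1 two-colour Agilent mouse array, 1 of the 3 arrays of the series. MigA9 is a mouse cell line transformed by Hoxa9 and kept in medium with 10% fetal calf serum and 1% GM-CSF-conditioned medium, which treated and untreated cells shared. RNA from cells given 2.5 µM DB818 for 24 h was labelled with Cy5 and RNA from untreated cells with Cy3, and both were hybridised to the same array. Companion arrays carried RNA after 6 and 12 h against untreated cells. A gene was included where at least 1 of its probes was well above background in both channels and unsaturated, which held for 11565 of the 27367 genes on the array, or 16894 of 41122 probes used. Its value is the log2 of the Cy5 over the Cy3 signal after background correction and loess within the array, so that a positive value means a higher signal in treated cells and a value of 1 means 2-fold.

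HOXA9 is a homeobox transcription factor of early blood progenitors that binds DNA with cofactors of the PBX and MEIS families and holds myeloid cells in an immature, dividing state when it is kept on. DB818 binds in the minor groove of DNA and has been tried as a blocker of the contact between HOXA9 and its sites. Myeloid progenitors on their way to neutrophils first make the proteins of primary granules, such as myeloperoxidase and neutrophil elastase, and later those of secondary and tertiary granules, while a separate path leads to monocytes. GM-CSF signals in these cells through JAK2 and STAT5.

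No second array and no dye swap was made at 24 h, so no p-value is given and every difference below is a size on 1 array. A dye effect of a single probe and an effect of DB818 cannot be told apart, and the sources used here do not say whether the arrays shared 1 untreated RNA. Repeats exist only within the array. The SD of the log2 ratio between spots of the same probe was 0.051 over 22 measured probes that were each spotted 10 times, and the pooled SD between different probes of a gene was 0.12 over 4039 genes. Since each culture was hybridised as a whole, fewer cells of a type and less RNA per cell cannot be told apart. All 12 markers of myeloid progenitors were measured, among them Ptprc, Spi1, Cebpa, Kit and both GM-CSF receptor chains. Their summed signal was 39567 untreated and 34075 treated, with Mpo alone at 9796 and 4321. Mpo (-1.18) and Elane (-0.71) had the lowest ratios of the 12. The highest were those of Itgam (0.34), Kit (0.31), Csf2ra (0.14) and Hoxa9 (0.11). Of the markers measured for other lineages, Mcpt8 (0.49) and Hdc (-0.66) were the 2 of 10 for mast cells and basophils, and their summed signal was 352 untreated and 381 treated. For B cells 2 of 10 were measured (summed signal 528 and 455), for megakaryocytes 3 of 8 (357 and 404), for eosinophils 1 of 8 (82 and 91) and for T and NK cells 1 of 9 on the array (78.8 and 77.0). No marker of erythroid cells (8 on the array), dendritic cells (8) or fibroblasts, stroma and epithelium (10) was well above background in both channels.

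With the processing used here, a small share of genes differed between the 24 h culture and untreated cells, and that share depended on the processing. The median log2 ratio over all 11565 genes was 0.03 with an SD of 0.149, and 95.8% of genes lay within 0.32 of 0. A gene is counted as higher below where its ratio was 0.32 or more, a signal at least 25% above the untreated one, and as lower where it lay 0.32 or more under 0. By this measure 315 genes (2.72%) were higher and 169 (1.46%) lower. The gene lists below and their members were chosen with earlier results of these data known. Their shares, set beside those of all genes, are therefore descriptions and not tests. A stricter limit of 1.5-fold left 39 higher genes (0.337%) and 26 lower ones (0.225%), and a limit of 2-fold left 4 higher genes (0.0346%) and 4 lower ones (0.0346%). Both the number of genes past 0.32 and the balance of higher and lower ones depended on the scaling. By the scanner software's own ratio 920 were higher and 995 lower, and without loess, after centring on the median alone, 1812 and 3474. The constant of 50 added to both channels in the background correction draws ratios of dim genes toward 0. Without it 921 genes were higher and 525 lower.

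**Figure D1:**
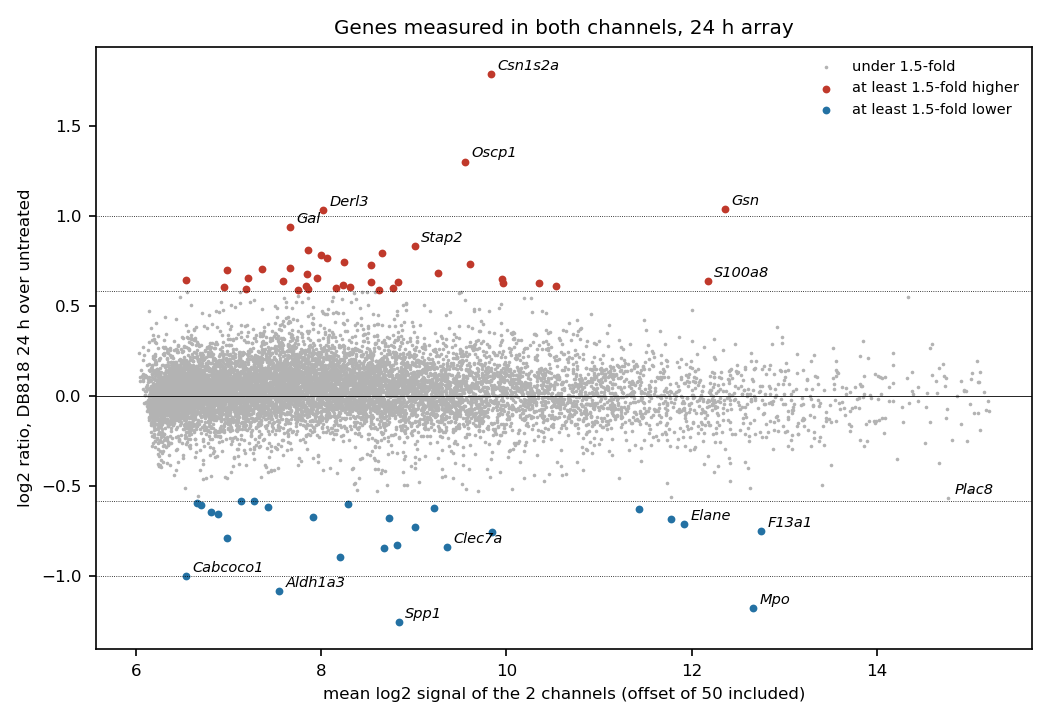
Log2 ratio of DB818 24 h over untreated cells (vertical axis) against the mean log2 signal of the 2 channels (horizontal axis) for each of the 11565 measured genes, with genes at least 1.5-fold higher in red and lower in blue and dotted lines at 1.5-fold and 2-fold. The cloud is centred near 0 at all signals, 4 genes lie above the upper 2-fold line with Csn1s2a farthest out at 1.79, and Spp1 is lowest at -1.26.

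The largest ratio on the array belonged to a milk protein gene. Csn1s2a, an alpha-S2-like casein, had a normalised signal of 492 in untreated and 1701.5 in treated cells, a 3.46-fold difference (log2 ratio 1.79) on 1 probe. Csn2, the beta-casein gene and a classical target of STAT5 in mammary cells, had signals of 25079 untreated and 37475 treated, and the treated spot was saturated, so that Csn2 was at least 1.49-fold higher. Both caseins therefore had the higher signal in treated cells. The probes of Csn1s1, Csn1s2b, Csn3, Wap and Lalba, the other milk protein genes on the array, were not well above background in either channel. At 6 and 12 h the ratio of Csn1s2a was 0.39 and 1.10. Activated STAT5 binds palindromes called GAS sites, and these letters (TTCNNNGAA, the same on both strands) stood in the RefSeq promoter sequence of both caseins. The Csn2 stretch is shown from position -250 to -1 before the start of the gene (GRCm38.p6, minus strand, chr5:87699426-87699675) and that of Csn1s2a as 30 bases around the match after its start (plus strand, chr5:87774460-87774489), with the GAS letters in capitals:
Csn2: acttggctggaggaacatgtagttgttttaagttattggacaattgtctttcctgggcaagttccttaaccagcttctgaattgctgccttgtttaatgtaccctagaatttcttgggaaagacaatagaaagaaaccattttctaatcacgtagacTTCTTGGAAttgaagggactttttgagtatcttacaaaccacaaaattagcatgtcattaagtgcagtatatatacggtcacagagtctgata
Csn1s2a: ttatagtgctTTCTTAGAAttacaatgact
The first letter of the match was at position -93 in Csn2 and at 21 in Csn1s2a, counted from the start. These letters were also found in 8.30% of all 32851 promoters of 300 bases in the table (250 before and 50 after the start), and in 3 of 43 promoters (6.98%) of the 29 matched genes that were at least 1.5-fold higher.

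The pathway genes around STAT5 themselves were mostly close to 0. Of 21 listed genes of the STAT5 pathway and its cytokine feedback 20 were measured, 2 were higher (10%, against 2.72% of all genes), none was lower, and the median was 0.05 against 0.03 for all genes, or 0.19 with median centring. The first of the 2 was Id1, an inhibitor of helix-loop-helix factors, with signals of 804 and 1242 and ratios of 0.60 and 0.65 on its 2 probes. Socs3, a feedback inhibitor of JAK kinases, was the other at 0.47. The kinase gene Jak2 (0.31) and Stat5b (0.30) had smaller positive ratios, Stat5a was at 0.04, and Cish, a feedback inhibitor and common readout of STAT5, was at 0.00 with signals of 2983 and 2978. Pim1, a kinase gene downstream of STAT5, was at -0.26 with its 2 probes apart at -0.47 and -0.06.

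After Csn1s2a the highest ratios came from genes of varied function. Oscp1, the organic solute carrier partner 1 gene, had signals of 478 untreated and 1182 treated (log2 ratio 1.31, 2.47-fold). Gsn encodes gelsolin, which severs and caps actin filaments, and its signals were 3670 and 7547 (1.04, 2.06-fold). Derl3, a component of the channel that removes misfolded proteins from the endoplasmic reticulum, had signals of 182 and 373 (1.03, 2.05-fold). These 4 genes were the ones at or above 2-fold. Gal, the precursor of the neuropeptide galanin, followed at 0.94 with signals of 147 and 281. Stap2, an adaptor of cytokine receptor signalling, was at 0.84, the gap junction gene Gja5 at 0.81, and Prss16, a serine protease best known from the thymus, at 0.79. Bmf, a pro-apoptotic member of the BCL2 family, had signals of 194 and 335 and a ratio of 0.78. Other genes among the 25 highest included Tbc1d10c (0.77), Arap3 (0.73), a signalling protein with an Arf GTPase-activating domain, and Timp2 (0.73), an inhibitor of metalloproteinases. Zbp1 (0.68) encodes a sensor of Z-form nucleic acid, Zfpm1 (0.66) a partner of GATA factors, Tgfb2 (0.66) a cytokine of the TGF-beta family, and Slc32a1 (0.65) the vesicular transporter of GABA and glycine.

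The lowest ratios were headed by Spp1 and Mpo. Spp1, which encodes the secreted phosphoprotein osteopontin, had signals of 708 untreated and 297 treated, a 2.39-fold difference (log2 ratio -1.26). Mpo, myeloperoxidase of the primary granules, had signals of 9796 and 4321 (-1.18, 2.27-fold). Aldh1a3, which makes retinoic acid from retinaldehyde, had signals of 273 and 129 (-1.08, 2.12-fold). All 3 were 2-fold lower or more, as was Cabcoco1 (132 and 65.8, 2.00-fold). The treated signal of Cabcoco1 lay at the lowest level that the scanner called well above background. Dio2, the deiodinase that makes active thyroid hormone, was at -0.89, Pmp22, a membrane protein of myelin and other cells, at -0.85, and Clec7a, the beta-glucan receptor of phagocytes, at -0.84 with signals of 878 and 490. Enzymes of conjugation were among the 25 lowest as well. Glyat, a glycine acyltransferase, was at -0.79, and Mgst1, a microsomal glutathione transferase, had signals of 1195 and 708 and ratios of -0.78 and -0.73 on 2 probes. F13a1, the coagulation factor XIII A chain made by monocytes, had signals of 8933 and 5312 (-0.75). Klf2, a transcription factor of quiescence in leukocytes, was at -0.68. Plac8, at -0.57 with signals of 34094 and 22985, was the 1 gene of the 25 lowest whose direction turned with median centring (0.09).

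**Figure D2:**
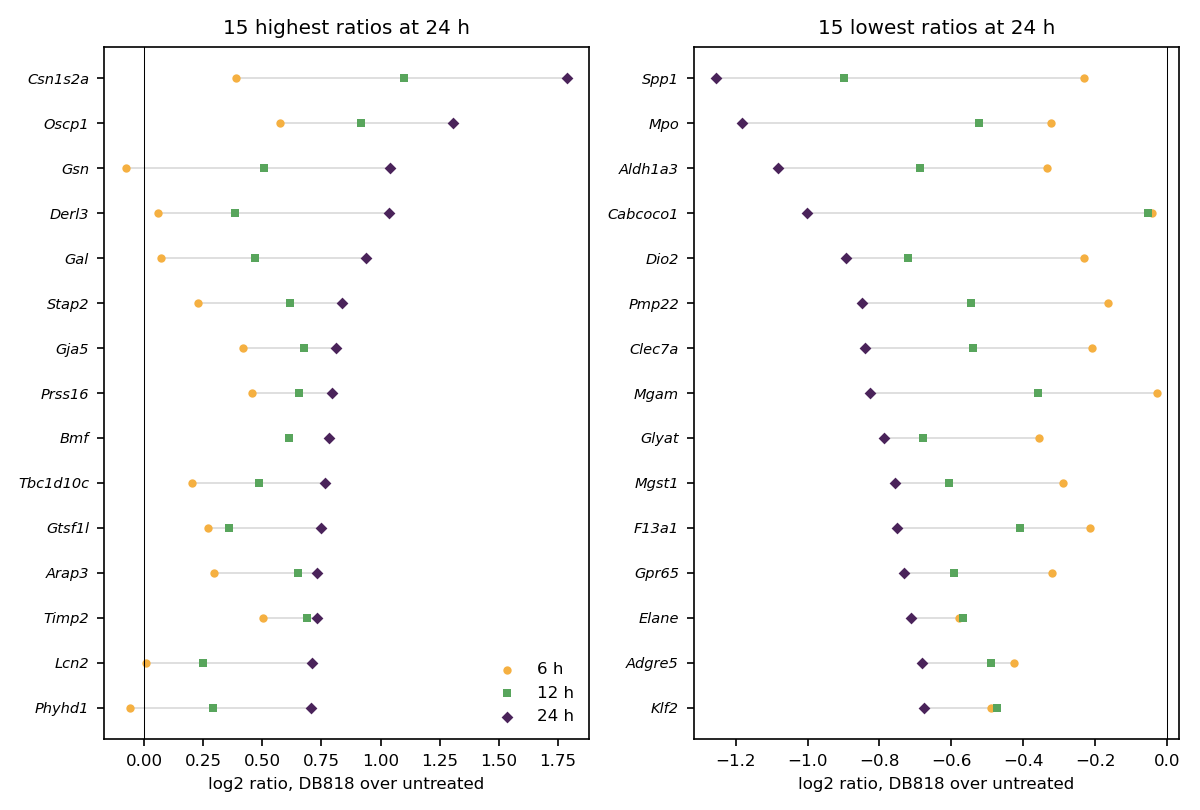
Log2 ratios of DB818 over untreated cells (horizontal axes) after 6 h (circles), 12 h (squares) and 24 h (diamonds) for the 15 highest (left) and 15 lowest (right) named genes of the 24 h array, 1 array per time. Most genes step outward from 6 to 12 to 24 h; Gsn starts at -0.08 and Phyhd1 at -0.06 on the other side of 0, and Cabcoco1 stays near -0.05 until 12 h.

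The same genes on the companion arrays had smaller ratios. The 3 comparisons may share untreated RNA, so their values are set side by side only, and the genes were picked for their size at 24 h. Among the 25 highest the median ratio was 0.19 at 6 h, 0.47 at 12 h and 0.73 at 24 h, with 24 of the 25 measured on every array and 24 ordered from 6 through 12 to 24 h. Among the 25 lowest the medians were -0.23, -0.49 and -0.71, and 23 were ordered that way. All 25 of each set had at 12 h the sign they had at 24 h, against 21 of the 24 highest measured at 6 h and 24 of the lowest. Elane, neutrophil elastase, had nearly its 24 h value from the start (-0.58, -0.57 and -0.71). Lcn2, the siderophore-binding protein lipocalin, was at 0.01, 0.25 and 0.71. Cabcoco1 was at -0.04 and -0.05 before its -1.0 at 24 h. That last value rests on 1 probe, with a treated signal at the lowest level called well above background.

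Most of these genes rest on a single probe. Of the 39 genes at least 1.5-fold higher 34 had 1 measured probe, as did 24 of the 26 lower. Only 25 of the 39 and 16 of the 26 had a single probe on the array. Others had further probes whose signal was not well above background in both channels, with ratios near 0. Such probes read -0.02, -0.02 and 0.12 for Gja5, 0.02 and 0.04 for Bmf, and -0.03 and 0.03 for Amot. Among genes with 1 probe 3.27% were higher by 0.32 or more and 1.97% lower, against 1.71% and 0.52% of genes with 2 or more. Agreement between probes was therefore asked of the 4039 genes with 2 or more measured probes. In 33 of them every probe was higher by 0.32 or more (0.817%) and in 8 every probe was lower by that much (0.198%). By the mean of the probes 69 were higher and 21 lower, of which 68 and 19 had all probes on the same side of 0. No gene had probes past that limit in opposite directions.

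The genes with agreeing probes included enzymes, receptors and transcription factors. Cstdc6, a cystatin domain gene with close relatives in the mouse genome, had signals of 298 and 462 and ratios from 0.61 to 0.65 on 3 probes. Alox5, which starts leukotriene synthesis, had signals of 277 and 402 and ratios from 0.53 to 0.56 on 3 probes. Il1r2, the decoy receptor for interleukin-1, was at 0.61 with its 2 probes at 0.45 and 0.77, and Aif1, a calcium-binding protein of macrophages, at 0.58 with probes at 0.35 and 0.80. Both of these spreads were wider than the pooled SD between probes. Elovl7, an enzyme that lengthens fatty acids, was at 0.61, the GABA transporter gene Slc6a13 at 0.59, the membrane protein gene Plp2 at 0.58, Shfl, an interferon-induced inhibitor of ribosomal frameshifting, at 0.55, and Snap47, of the membrane fusion machinery, at 0.53. The 8 lower genes began with Mgam, a maltase-glucoamylase, which had signals of 603 and 340 and ratios of -0.95 and -0.70, followed by Mgst1. Irf8, a transcription factor required for monocytes and dendritic cells, had signals of 626 and 450 and ratios of -0.53 and -0.42. Lpxn (-0.49), a focal adhesion adaptor of leukocytes, Scpep1 (-0.43), a serine carboxypeptidase, Heg1 (-0.42), a membrane protein of endothelial junctions, Il17ra (-0.41), the interleukin-17 receptor chain, and Rgs18 (-0.35), a regulator of G protein signalling in blood cells, made up the rest.

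**Figure D3:**
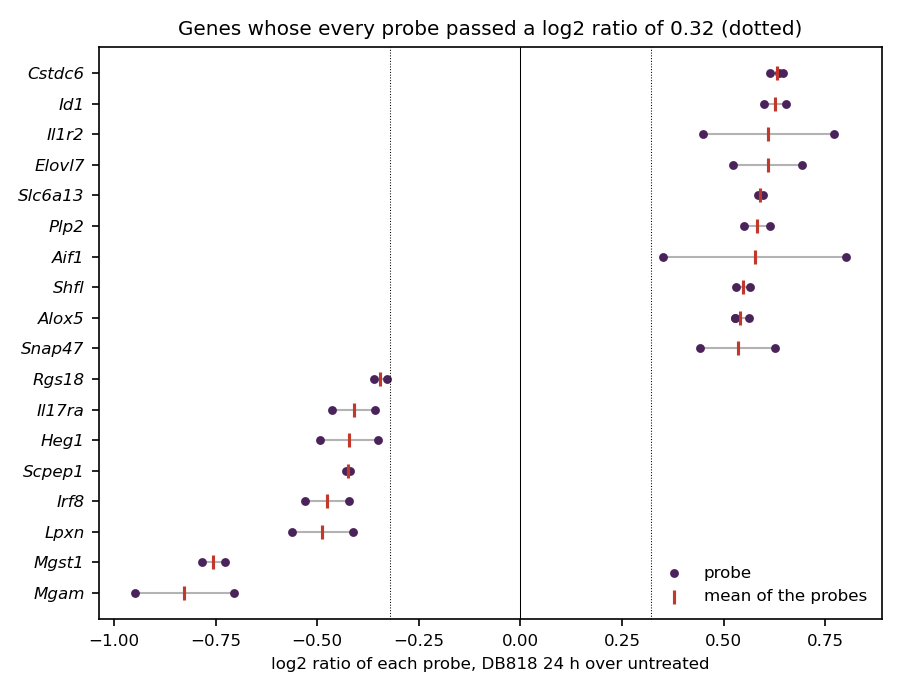
Log2 ratio of each probe (points) and the mean over the probes of a gene (red bars) on the 24 h array for the 10 highest genes and all 8 lower genes whose every probe passed 0.32 (dotted lines). Probes of Cstdc6, Slc6a13 and Scpep1 nearly coincide, while those of Aif1 are at 0.35 and 0.80 and those of Il1r2 at 0.45 and 0.77.

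Primary granule genes had low ratios as a list. Of 14 measured genes of 17, 4 were lower (28.6%, against 1.46% of all genes) and none was higher, 11 were below 0, and the median was -0.22 against 0.03 for all genes. Mpo and Elane led the list, Elane with signals of 4953 untreated and 3025 treated. Serpinb1a, an inhibitor of neutrophil proteases, was at -0.39 and Prtn3, proteinase 3, at -0.37. Ctsc, which activates the granule proteases, was at -0.31 and Cebpa, the transcription factor of granulocyte commitment, at -0.19, while Ms4a3 (-0.02) and Gfi1 (0.00) were close to 0. Median centring turned the median of the list to 0.02 and Serpinb1a to 0.08. Mpo and Elane were lower in every alternative processing run that gave them a value.

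Genes of later granules and mature neutrophils went both ways. Of 24 measured genes of 34, 7 were higher (29.2%, against 2.72% of all genes) and 3 lower (12.5%), with a median of 0.17, or 0.29 with median centring. Lcn2 had signals of 158 and 259. S100a8 and S100a9, the subunits of calprotectin, had signals of 3713 and 5783 (0.64) and of 17124 and 25087 (0.55). Ltb4r1, the leukotriene B4 receptor, was at 0.64, Pglyrp1, a peptidoglycan-binding granule protein, at 0.34, and the integrin gene Itgam at 0.34. The genes Camp (0.22) and Ltf (0.19), for the secondary granule proteins cathelicidin and lactoferrin, had smaller ratios. On the lower side were Slpi, a protease inhibitor, with signals of 3431 and 2222 (-0.63), the collagenase gene Mmp8 (-0.50) and Chil3 (-0.40), a chitinase-like protein. The list had medians of -0.04 at 6 h and 0.02 at 12 h, and S100a9 was at -0.18 and -0.03 there.

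Monocyte and macrophage genes had mostly negative ratios. Of 30 measured genes of 42, 8 were lower (26.7%, against 1.46% of all genes) and none was higher, 24 were below 0, and the median was -0.17. Beside Spp1, Clec7a, F13a1 and Irf8 these were Gpr65 (-0.73), a proton-sensing receptor, Adgre5 (-0.68), the adhesion receptor CD97, Ccr2 (-0.41), the chemokine receptor of inflammatory monocytes, and Gpnmb (-0.34), a glycoprotein of macrophages. The probes of Ccr2 were apart at -0.55 and -0.27. Csf1r, the receptor that defines the lineage, was at -0.12, and Adgre1, the F4/80 antigen, at -0.02. Fcgr1 (0.31), an IgG receptor, and the Toll-like receptor genes Tlr2 (0.30) and Tlr4 (0.28) had positive ratios. Among 9 measured chemokine genes and receptors, Ccl9 was at -0.47 with signals of 6431 and 4633, a value that median centring moved to 0.01. Of 15 measured genes of antigen presentation 1 was lower (6.67%), Cd74, the invariant chain, at -0.45.

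**Figure D4:**
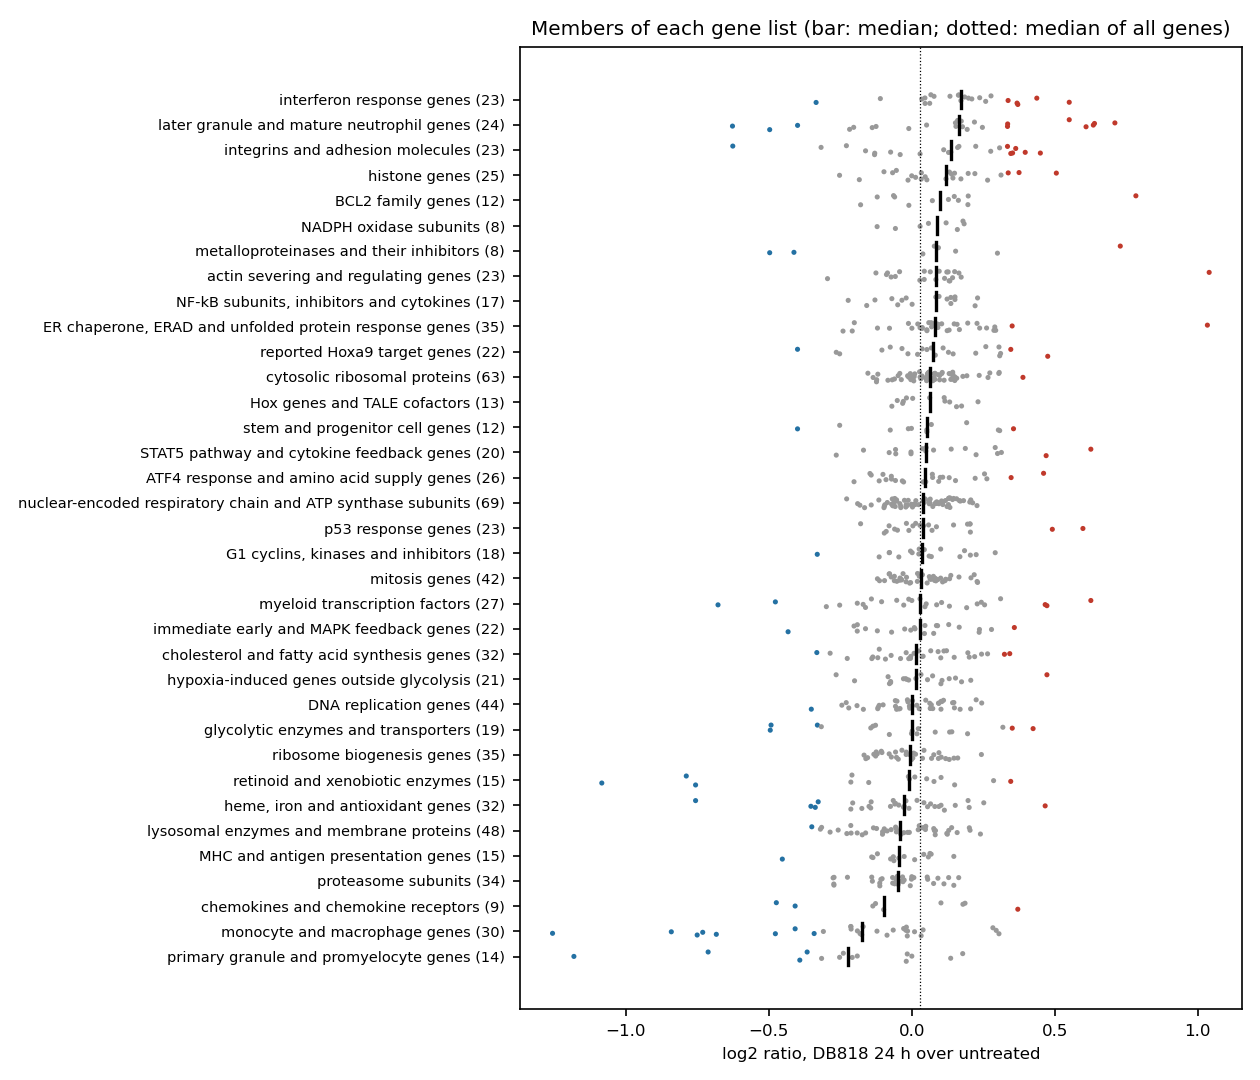
Log2 ratio of DB818 24 h over untreated cells (horizontal axis) of each measured member of the 35 gene lists with 5 or more measured members (number in brackets), ordered by list median (black bars), with members at 0.32 or more in red and those 0.32 or more under 0 in blue. The dotted line is the median of all genes at 0.03; list medians run from -0.22 for primary granules to 0.17 for interferon response genes, and most members lie within 0.32 of 0.

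Interferon response genes had mostly positive ratios. Of 23 measured genes of 33, 21 were above 0, 5 were higher (21.7%, against 2.72% of all genes) and 1 lower (4.35%, against 1.46%), and the median was 0.17, which median centring turned to -0.06, against 0.03 for all genes. Of all 11565 genes 59.8% were above 0. Isg20, an exonuclease, had ratios of 0.33 and 0.54 on 2 probes. Bst2, which tethers budding viruses, had signals of 2561 and 3307 (0.37), and Eif2ak2, the kinase PKR, was at 0.34. Oasl2 (0.55) and the chemokine Cxcl10 (0.37) were dim and turned with median centring, to -0.06 and -0.15. Gbp3, a guanylate-binding protein, was at -0.33, and the transcription factor genes Irf1 (0.06) and Irf7 (-0.11) were close to 0. The medians of this list were 0.02 and 0.04 at 6 and 12 h.

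Adhesion genes and genes of the actin skeleton held single large members. Of 23 measured integrins and adhesion molecules 6 were higher (26.1%, against 2.72% of all genes) and 1 lower (4.35%, against 1.46%). Cd9 (0.45), a tetraspanin, and Itga6 (0.38 and 0.41 on 2 probes), a laminin receptor chain, were in front. Itgal, the LFA-1 alpha chain, was at 0.35 with probes at 0.23 and 0.47. Cd47, the signal against phagocytosis, was at 0.35 with 4 probes between -0.01 and 0.61, the lowest being its brightest. Adgrg1 (0.36) turned to -0.20 with median centring. Among 23 genes that sever or regulate actin Gsn was the 1 past 0.32 (4.35%), beside Cfl1, cofilin, at -0.29. Of the metalloproteinases and their inhibitors 8 were measured, with Timp2 higher (12.5%) and Mmp8 and the sheddase gene Adam8 (-0.41) lower (25%).

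The Hox genes themselves had ratios near 0. Of 33 Hox genes and TALE cofactors 13 were measured and none was past 0.32 in either direction. The median was 0.06 against 0.03 for all genes, and -0.51 with median centring. The Hoxa9 probe had signals of 14296 untreated and 15470 treated (0.11). The sources used here do not say whether it reads the transforming copy, the gene of the cells or both. Hoxd9 was at 0.23 and the cofactor gene Pknox1 at 0.13. Of 22 measured genes reported as Hoxa9 targets 2 were higher (9.09%, against 2.72% of all genes). These were Lck (0.48), a kinase gene with dim signals of 99.1 and 138 on 1 probe, and Cd47, whose brightest probe was at -0.01. Sox4 (-0.40), a factor of immature cells, was the 1 lower gene (4.55%, against 1.46%). The median of these targets was 0.08 against 0.03 for all genes. Kit, the stem cell factor receptor, was at 0.31, and Myb, a factor of progenitor growth, at -0.25 with 4 probes between -0.47 and -0.05. Among 27 myeloid transcription factors 3 were higher (11.1%), Bhlhe40 (0.47), Bach1 (0.47), a heme-regulated repressor, and Id1. Klf2 and Irf8 were the 2 lower ones (7.41%). Spi1, the PU.1 gene, was at -0.30 with signals of 115 and 93.4.

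A form of the HOX-PBX recognition sequence (TGATTNAT, either strand) was looked for in promoters because HOXA9 binds such sites with PBX. It was found in 3 of 28 promoters (10.7%) of the 20 matched genes that were at least 1.5-fold lower, in 1 of 43 (2.33%) of those higher, in 1.20% of 10537 promoters of measured genes and in 3.22% of all promoters. The variant TGATTTAC, which no match to the first form can equal, was in 0 of the 28 and 0 of the 43 and in 0.551% of all. The genes with a match among the lower ones were Mgst1, Glyat and Amot, which encodes angiomotin (-0.60, signals of 384 and 254). Their matches are shown in capitals within 30 bases on the strand of the gene (GRCm38.p6), at chr6:138140479-138140508 (plus) for Mgst1, chr19:12633146-12633175 (plus) for Glyat, where the letters read on the other strand, and chrX:145487815-145487844 and chrX:145487731-145487760 (minus) for Amot:
Mgst1: aggaggcggggTGATTAATagaaaaatagc
Glyat: tattcagctctATGAATCAgacttcctgcc
Amot, farther from the start: gaattcatctaTGATTTATgaatacagtcc
Amot, nearer to the start: ccttagaggacTGATTTATccatcctctgg
A match of letters is not evidence of binding, and binding was not measured. A C/EBP form (TTGCNNAA, either strand) was in 7 of the 28 promoters (25%), in 5 of the 43 (11.6%), in 8.50% of those of measured genes and in 10.8% of all. Spp1, Dio2, Slpi and Enpp1 were among the lower genes with a match, and Lcn2 and Bmf among the higher ones. The core of the hypoxia response element (ACGTG, either strand) was in 7 of the 28, in 6 of the 43 (13.95%), in 26.3% of those of measured genes and in 19.6% of all, and the GAS letters were in 2 of the 28 (7.14%).

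Genes of the endoplasmic reticulum had mostly positive ratios, with 1 past 2-fold. All 35 listed chaperones, degradation factors and unfolded protein response genes were measured. Of these 29 were above 0, beside 59.8% of all genes. The list had 2 higher genes (5.71%, against 2.72% of all genes) and none lower (against 1.46%). Its median was 0.08 against 0.03 for all genes, and median centring moved it to 0.42. Derl3 was followed by Pdia6, a disulfide isomerase, at 0.35 with 4 probes between 0.17 and 0.46. Hspa5, the chaperone BiP, had signals of 22390 and 27329 (0.29), Creld2 was at 0.29, the ubiquitin ligase gene Syvn1 at 0.29 and Herpud1 at 0.26. At 6 h Hspa5 was at -0.01 and Derl3 at 0.06. The promoter of Derl3 holds the core of the endoplasmic reticulum stress element, CCAAT and CCACG with any 9 bases between them, on the strand opposite to the gene. It is shown from position -250 to -1 (GRCm38.p6, plus strand, chr10:75893148-75893397), with the element in capitals:
Derl3: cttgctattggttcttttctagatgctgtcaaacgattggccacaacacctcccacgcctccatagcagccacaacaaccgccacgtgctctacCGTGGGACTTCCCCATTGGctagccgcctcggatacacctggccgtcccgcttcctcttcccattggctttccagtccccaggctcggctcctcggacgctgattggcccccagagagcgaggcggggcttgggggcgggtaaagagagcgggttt
This core was found in 39 of all 32851 promoters (0.119%), and Derl3 was the 1 gene among those at least 1.5-fold higher that held it, with 0 of the 28 promoters of lower genes.

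Stress and metabolic genes gave few members past 0.32. Of 23 measured p53 response genes 2 were higher (8.70%, against 2.72% of all genes) and none lower (against 1.46%). Gdf15, a stress-induced cytokine, had signals of 356 and 539 (0.60), and Trp53inp1 was at 0.49 with probes at 0.46 and 0.53. Cdkn1a (0.21), which encodes the cell cycle inhibitor p21, and Mdm2 (0.20), the ligase that degrades p53, had smaller ratios. In the BCL2 family Bmf was the 1 of 12 past 0.32 (8.33%). Of 26 genes of the ATF4 response and amino acid supply 2 were higher (7.69%) and none lower. The higher ones were Psph, the last enzyme of serine synthesis, with probes at 0.46 and 0.46, and Mthfd2 (0.35) of mitochondrial folate metabolism. Atf3 was at -0.20. Glycolysis had members on both sides, with 2 of 19 genes higher (10.5%) and 3 lower (15.8%). The glucose transporter gene Slc2a1 had signals of 1497 and 2009 (0.42) and Aldoc was at 0.35, against Eno1 (-0.49), Pgam1 (-0.49) and Pkm (-0.33). Median centring turned Pgam1 and Pkm to 0.06 and 0.05. The median of the 19 glycolytic genes was 0.00 at 24 h (0.36 with median centring) and -0.22 at 6 h, and that of 21 other hypoxia-induced genes 0.01 (0.13 with median centring) and -0.18. Of 32 genes of heme, iron and antioxidant defence 4 were lower (12.5%) and 1, Bach1, was higher (3.125%). The lower ones were Mgst1, Blvra (-0.35), which reduces biliverdin, the metal transporter gene Slc11a1 (-0.34) and the transferrin receptor gene Tfrc (-0.33).

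Among 32 genes of cholesterol and fatty acid synthesis 2 were higher (6.25%, against 2.72% of all genes) and 1 lower (3.125%, against 1.46%). The synthase gene Fdps (0.34, with probes at 0.20 and 0.48) and the desaturase gene Scd1 (0.32) were higher. The elongase gene Elovl6 (-0.33) was lower. Scd1, a dim gene, turned to -0.19 with median centring. Of 48 lysosomal genes 1 was lower (2.08%), Sgsh (-0.35), a sulfohydrolase, and the median was -0.04, or 0.17 with median centring. None of 17 genes of NF-kB signalling (median 0.08) or 8 subunits of the NADPH oxidase (0.09) was past 0.32, and median centring moved these medians to -0.15 and 0.36. Of 22 immediate early and MAPK feedback genes Jund (0.36) was the 1 higher (4.55%) and Dusp6 the 1 lower (4.55%). Dusp6, a phosphatase that ends ERK signalling, had signals of 1858 and 1378 (-0.43). Of 15 enzymes of retinoid and xenobiotic metabolism 1 was higher (6.67%) and 3 were lower (20%). Dhrs3 (0.35, with probes at 0.16 and 0.53), which reduces retinaldehyde, was the higher one, and Aldh1a3, Glyat and Mgst1 were the lower ones. Of 12 measured stem and progenitor genes Egfl7 (0.36), a secreted factor, was higher and Sox4 lower (8.33% each).

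Few growth genes were past 0.32, while the medians of their lists depended on the scaling. Of 44 DNA replication genes 1 was past 0.32, on the lower side (2.27%, against 1.46% of all genes). This gene, Mcm6, a subunit of the replicative helicase, was at -0.35, which median centring turned to 0.27. None of 42 mitosis genes (median 0.03), 35 ribosome biogenesis genes (-0.01) and 69 nuclear-encoded subunits of the respiratory chain and ATP synthase (0.04) was past 0.32 in either direction. With median centring these medians were 0.16, 0.13 and 0.45, that of DNA replication was 0.25 in place of 0.00, and that of ribosomal proteins 0.54 in place of 0.07. Of 34 proteasome subunits none was past 0.32 and 24 were below 0, with a median of -0.05 that median centring moved to 0.29. Rpl14 (0.39) was the 1 of 63 ribosomal protein genes past 0.32 (1.59%, against 2.72% of all genes higher). Myc, which drives ribosome biogenesis and growth, was at -0.06 with 3 probes between -0.12 and 0.04, and Cdk4, a kinase of the G1 phase, was at -0.33. Histone genes, whose copies are close in sequence so that probes may read several, had 3 of 25 higher (12%, against 2.72% of all genes). These were H2ac4 (0.51), H4c14 (0.38) and the linker histone gene H1f0 (0.34, with probes at 0.10 and 0.57). The median of the histone genes was 0.12, or 0.27 with median centring.

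Genes above background in 1 channel only gave bounds. Against an untreated signal not well above background 1059 genes had a bound, 0 of them at 1.5-fold or more. The treated signal was not well above background in 266 genes. Of their probes 253 gave a bound over 1-fold, and 1, of a gene without an established symbol, was at least 1.5-fold lower. Each bound sets the bright channel against the lowest signal that the scanner called well above background, or against the dim spot's own signal where that was higher. The largest upper ones after Csn2 were B3gnt5 and Vat1l (each at least 1.39-fold higher), Dgcr8 (1.38) and Rdh13 (1.36), and among established symbols the largest lower one was that of Oc90 (at least 1.26-fold lower).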

How the data were processed

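Per the labels, RNA of treated cells was in Cy5 and RNA of untreated cells in Cy3 on every array. The authors scanned the arrays and deposited foreground and background intensity per spot and channel, with signals extracted by Agilent Feature Extraction 9.1.3.1 per the submitters' processing notes. The deposited value table holds log10 ratios of treated over untreated, which equalled the scanner software's log10 ratio (largest difference 0).

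Log2 ratios were computed from the deposited intensity values (mean signals, median backgrounds) with normexp (offset 50) and loess within the array in limma 3.58.1 (R 4.3.3). Of 41534 spots, 52 outlier spots were left out, and spots of a probe were averaged. Of the probes, 16940 (41.2%) were well above background in both channels, 1890 in Cy5 only and 339 in Cy3 only, and 46 were saturated in Cy5 and 1 in Cy3. A gene is the mean of its measured probes. Median raw signals were 79.3 (Cy3) and 71.8 (Cy5) over backgrounds of 42 and 54, and 1 array limits the precision. Probes were named through RefSeq: 22835 matched on accession, 6721 on symbol and 3493 on a synonym, and 8073 kept the name in the file. Ratios set in advance in bright simulated spots were recovered. Recovery in dim spots was not tested. Promoters (RefSeq, GRCm38.p6) matched 29 of 39 higher and 20 of 26 lower genes.

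Named genes were the 25 highest and 25 lowest ratios among established symbols with probes of 1 sign, the 10 highest and the 8 lower genes whose every probe passed 0.32 (log2), the 5 largest bounds in each direction, the members with the largest ratios in each of 36 lists (6 or fewer), and a few fixed genes. Other list members near 0 and the discordant probes were named after their values were seen. Members and lists were chosen with earlier results of these data known. No test was run. The alternatives, 11 in all, changed the background correction, the normalisation, the limit for dim probes, which probe stands for a gene, and the use of outlier spots.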

Additional observations from a re-analysis of the deposited data

How the results depend on the processing

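All 25 highest genes kept their direction in the 11 alternatives where they had a value, and so did the 25 lowest except Plac8 with median centring. The counts moved more than the directions. They are given as higher and lower at 0.32 (log2), at 1.5-fold, at 2-fold and by every probe, against 315 and 169, 39 and 26, 4 and 4, 33 and 8. With no offset they were 921 and 525, 196 and 121, 31 and 20, 69 and 24. The scanner software's ratio gave 920 and 995, 210 and 274, 36 and 63, 78 and 55. Median centring gave 1812 and 3474, 302 and 1612, 7 and 58, 222 and 431; it leaves a trend with brightness, with medians of -0.77 in the dimmest and 0.43 in the brightest 10% of genes. Plain background subtraction gave 679 and 307, 107 and 50, 8 at 2-fold higher, and 56 and 14 by every probe. Among probes brighter than the median 2 genes were 2-fold lower, and 21 and 5 passed by every probe. Genes with at least 2 probes gave 69 and 21, 5 and 2, 0 and 0, from fewer genes. With outlier spots kept 12 genes were 2-fold lower. Among named genes past 0.32 and list medians of 0.1 or more, signs turned with median centring for Plac8 (0.0932), Serpinb1a (0.0788), Pgam1 (0.0634), Pkm (0.0496), Mcm6 (0.27), Scd1 (-0.19), Oasl2 (-0.0626), Cxcl10 (-0.15), Ccl9 (0.00692), Adgrg1 (-0.20), the median of primary granule and promyelocyte genes (0.02255) and the median of interferon response genes (-0.0626), and with the brightest probe alone for Cd47 (-0.0132). Of the 35 list medians, 13 in all turned with median centring, 11 of them under 0.1 in size to begin with. Where no construction is named, the cause was not tested.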

Other observations

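Some genes had probes that disagreed, and their means say little about either probe. These were picked after their values were seen. In 54 of the 4039 genes with 2 or more measured probes the probes lay more than 0.5 apart on the log2 scale. The widest gap was that of Csnk2a2, a catalytic subunit of casein kinase 2, with probes at -1.20 and 0.16, followed by Rab7, a GTPase of late endosomes, at -0.87 and 0.05. The probes of Lars, a leucyl-tRNA synthetase, ran from -0.04 to 0.74 over 3 probes, and those of Chd3, a chromatin remodeller, from -0.21 to 0.57 over 4.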
